A study of Saccharomyces cerevisiae with 3 samples.

Results

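The cytosolic 40S ribosomal protein genes of budding yeast were followed on 3 two-colour DNA arrays that set a strain short of HAL3 and VHS3 against its wild type. Members were all listed genes with a standard symbol of RPS plus a number, with or without A or B, matched through their systematic names to RefSeq (assembly R64). Of 56 such genes 54 were listed on the arrays, out of 6212 identifiers in all. RPS19A and RPS30A were not among the identifiers analysed here. Of the 54, RPS10B and RPS16A were blank on all 3 arrays, RPS1A and RPS22B were blank on 1, and 50 had a value on each array.

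HAL3 and VHS3 encode related proteins that inhibit the phosphatase Ppz1 and take part in coenzyme A synthesis. The mutant carried vhs3::URA3, in which URA3 takes the place of VHS3, and tetO:HAL3, a tetO promoter in front of HAL3 that doxycycline turns off. The wild type shared its JA100 genetic background, and both were grown at 28 °C for 15 h in synthetic complete medium. Doxycycline at 100 µg/ml was given to both strains, so the drug was present on both sides of every ratio. Replicate 1 was hybridised to 2 arrays with exchanged dyes, called here by the dye of the mutant: the replicate 1 Cy5 array and the replicate 1 Cy3 array. By its label, replicate 2 was hybridised to 1 array with the mutant in Cy5.

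The small ribosomal subunit binds the mRNA and the initiator tRNA and reads codons. In budding yeast most of its proteins are encoded by a pair of paralogous genes, A and B, whose products are identical or nearly so. Transcription of these genes is among the heaviest in a growing cell and is tied to growth through the TOR and protein kinase A pathways, with Rap1, Fhl1, Ifh1 and Sfp1 acting at the promoters. The proteins fall into those of the head, which turns during translocation, and those of the body and platform, which hold the mRNA entry and exit sides and the decoding centre.

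All values are log2 ratios of mutant over wild type with the array median set to 0, so that a positive value is higher in the mutant. No source gives the numerator of the deposited values outright, and the direction was taken from VHS3 and HAL3 in replicate 1. The array titles are themselves written as ratios, with the wild type first where the mutant was in Cy5 and the mutant first on the swapped array. Both arrays of replicate 1 ran the same way in the deposited values, so the titles cannot give the numerator of both. VHS3 was at −2.06 on the replicate 1 Cy5 array, −2.50 on the replicate 1 Cy3 array and 0.09 on the array labelled replicate 2. HAL3 was at −1.33, −1.29 and −0.14 on the same arrays. On the array labelled replicate 2 the deleted gene was thus not lower, against its label. Its title puts the wild type first and neither gene settles its direction, so every sign on that array is uncertain. VHS3 was near 0 there in either direction, so it is also uncertain whether the array sets this mutant against its wild type. The array was kept as a replicate by its label, in the direction of replicate 1, and counts with its sign turned are given below. Every limma result and every SD with n = 2 rests on that label. The 3 arrays held ratios for 4728 to 4894 genes, with standard deviations of 0.65, 0.70 and 0.35 on the replicate 1 Cy5 array, the replicate 1 Cy3 array and the array labelled replicate 2. Precision is limited by there being 3 arrays and 2 replicates, and signal over background is unknown. Equal amounts of total RNA (8 µg) were labelled for both strains, so a change in RNA per cell cannot be told apart from none.

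The 40S genes had ratios above 0 as a body on 1 of the 3 arrays. On the replicate 1 Cy5 array all 50 measured members were above 0, between 0.18 and 1.20, with a median of 0.73. On the replicate 1 Cy3 array, the dye swap of the same replicate, 26 of 52 members were above 0, with a range of −0.46 to 0.42 and a median of −0.0037. On the array labelled replicate 2, 25 of 52 members were above 0, with a range of −0.62 to 0.45 and a median of −0.0077. The all-gene median was 0 on each array by centring. On the replicate 1 Cy5 array 47 of 50 members lay in the highest 25% of all genes, against 1 of 52 on the replicate 1 Cy3 array and 11 of 52 on the array labelled replicate 2.

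**Figure D1:**
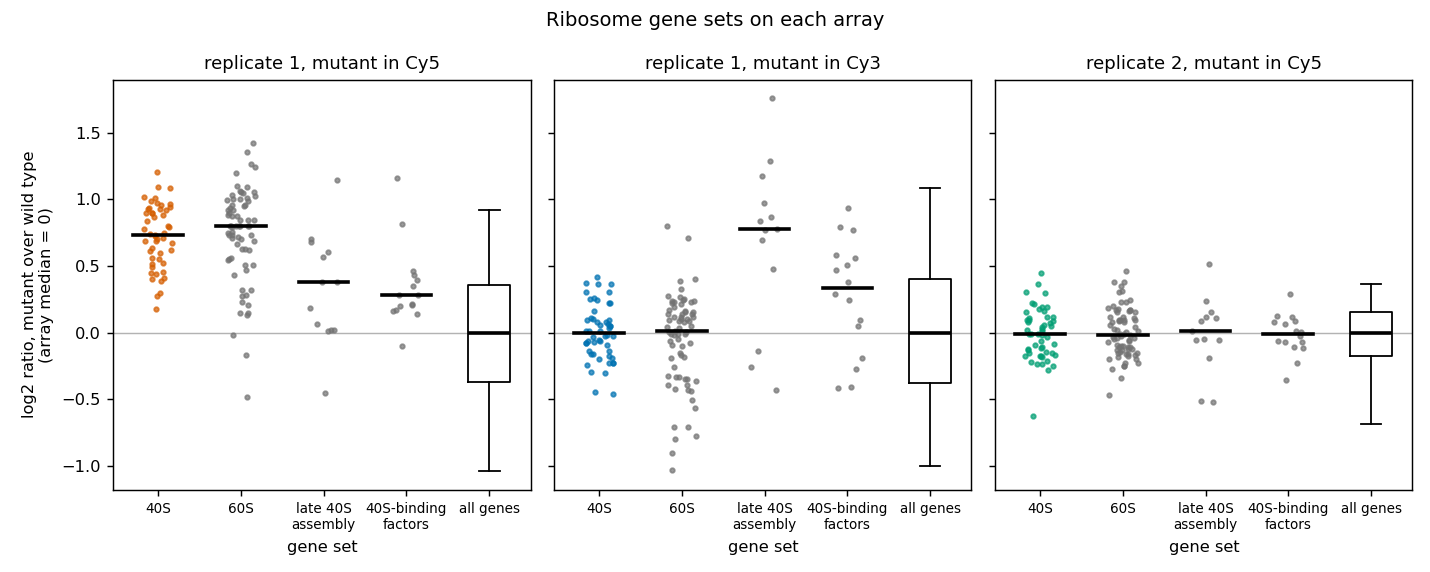
Log2 ratio of mutant over wild type (vertical axis, array median at 0) for the 40S genes, the 60S genes, the list of 40S chaperones and late assembly factors, the list of factors that bind the 40S, and all genes, on each of the 3 arrays. Points are genes and thick bars are set medians; the box shows the middle 50% of all genes and its whiskers run from the 5th to the 95th percentile. The 40S median is 0.73 on the replicate 1 Cy5 array, −0.0037 on the replicate 1 Cy3 array and −0.0077 on the array labelled replicate 2.

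The members kept close together on both arrays of replicate 1. Their standard deviation over genes was 0.24 on the replicate 1 Cy5 array, 0.21 on the replicate 1 Cy3 array and 0.19 on the array labelled replicate 2, against 0.65, 0.70 and 0.35 for all genes. The values of the members were at most weakly correlated between arrays. Pearson's r over members was −0.11 between both arrays of replicate 1 (50 genes), 0.12 between the replicate 1 Cy5 array and the array labelled replicate 2 (50 genes), and 0.087 between the replicate 1 Cy3 array and the array labelled replicate 2 (52 genes). Over all genes the same pairs of arrays gave 0.51, 0.16 and 0.14. Spearman's rho, which uses the order alone, was −0.14, 0.16 and 0.024 over members and 0.29, 0.13 and 0.017 over all genes. By order, the members thus differed from all genes mainly between both arrays of replicate 1. Genes on an array share its RNA and are not replicates, so these coefficients are descriptions.

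Both arrays of the swap pair differed in one direction for nearly all of these genes. A member's value was higher on the replicate 1 Cy5 array than on the replicate 1 Cy3 array in 49 of 50 cases, against 53.3% of all genes measured on 3 arrays. The median gap was 0.79, from −0.03 to 1.25, against 0.031 for all genes, and the median absolute gap was 0.79 for the members and 0.47 for all genes. The array labelled replicate 2 also had the mutant in Cy5, and all 50 members were lower there than on the replicate 1 Cy5 array, as were 50.6% of all genes. The part of the dye or of the single array in the gap was not tested. The replicate 1 mean given below is the mean of both swap arrays, and for 44 of 50 members it averages values at least 0.3 apart.

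**Figure D2:**
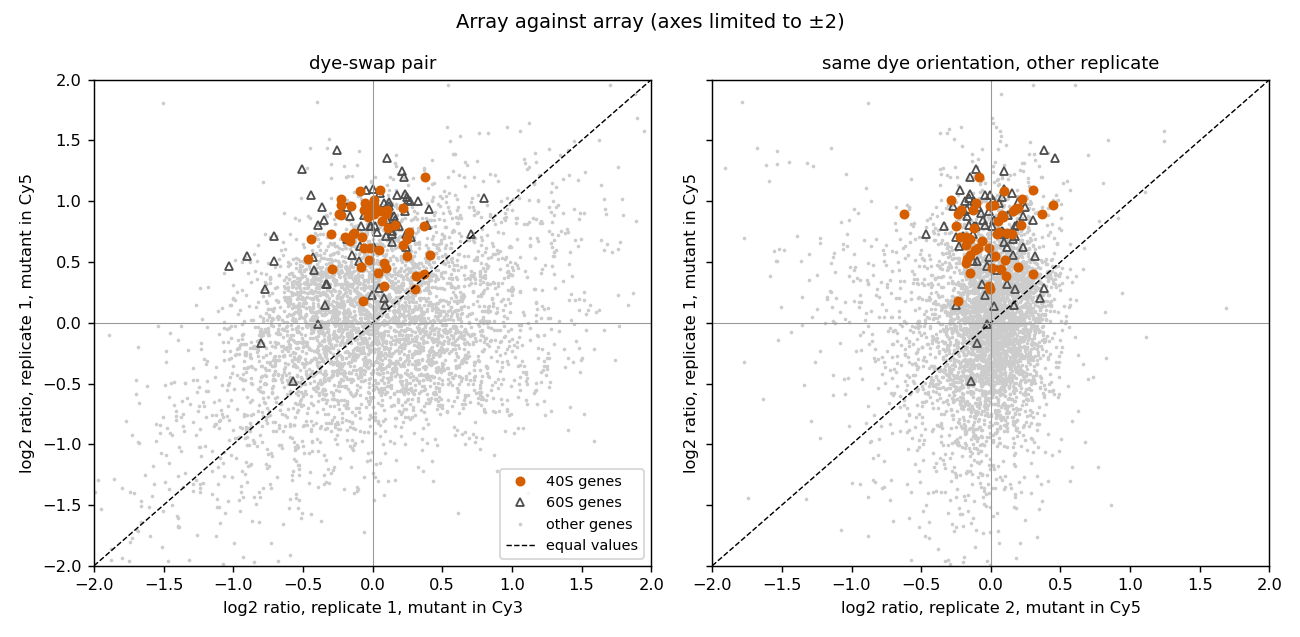
Log2 ratio on the replicate 1 Cy5 array (vertical axis) against the replicate 1 Cy3 array (left) and the array labelled replicate 2 (right), 1 point per gene, with both axes limited to values of at most 2 in either direction. Filled circles are 40S genes, triangles 60S genes, and the dashed line marks equal values. In the left panel 49 of 50 of the 40S genes lie above the line, and in the right panel all 50 do.

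By the test over all genes, no 40S gene passed the threshold between mutant and wild type. After the swap pair was averaged, 52 members had a value in both replicates. In limma, 0 of these 52 passed a Benjamini-Hochberg adjusted p of 0.05, as did 0 of 4598 genes tested (0%). The adjusted p of the members ran from 0.925 to 0.993. The deleted VHS3 and the repressed HAL3 were tested too, and neither passed. A test that missed the altered genes themselves cannot tell unchanged 40S genes from changed ones, so its 0 is no evidence of no change. At an unadjusted p under 0.05 in limma 0 members were higher, against 1.39% of all genes, and 0 were lower, against 3.44%. None was at least 2-fold higher in both replicates, against 0.283% of all genes. The median over members was 0.38 in replicate 1. The array labelled replicate 2 had a median of −0.0077.

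Above 0 in both replicates were 24 of 52 members, against 26.6% of all genes, and below 0 in both was 1, against 24.6%. Since 50 of 52 were above 0 in replicate 1, the first count follows mainly from the array labelled replicate 2. Above 0 on all 3 arrays were 12 of 50 members, against 14.5% of all genes. With the sign of the array labelled replicate 2 turned, the counts were 26 of 52 members above 0 in both replicates, against 25.2% of all genes, and 14 of 50 above 0 on all 3 arrays, against 13.5%. Its median was then 0.0077, and 0 members passed in limma. These 12, named after their values were seen, were RPS0A, RPS9A, RPS9B, RPS11B, RPS12, RPS14A, RPS14B, RPS16B, RPS22A, RPS25B, RPS28A and RPS29B. The mean of both replicates exceeded its SD and was above 0 in 18 of 52 members, and in 897 of 4598 genes.

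In the direction taken for the array labelled replicate 2, the highest means belonged to proteins of the platform, the head and the decoding region. RPS14A (YCR031C), 1 of the genes for Rps14, a platform protein needed for 18S rRNA maturation, was at 0.97 on the replicate 1 Cy5 array, 0.01 on the replicate 1 Cy3 array and 0.45 on the array labelled replicate 2. Its mean log2 ratio was 0.47 ± 0.029 (SD, n = 2), a 1.38-fold ratio, with an adjusted p of 0.925 in limma. The gap within the swap pair was 0.96, which that SD does not hold. RPS9B (YBR189W), for a body protein in which mutations alter decoding accuracy, was at 1.09, 0.05 and 0.30 on the same arrays, a mean of 0.44 ± 0.19 (SD, n = 2). RPS28A (YOR167C), for a head protein near the mRNA exit, was at 0.90, 0.10 and 0.37, a mean of 0.43 ± 0.092 (SD, n = 2). All 3 genes were thus above 0 everywhere and farthest from 0 on the replicate 1 Cy5 array. With the sign of the array labelled replicate 2 turned, the means were 0.020 for RPS14A, 0.14 for RPS9B and 0.065 for RPS28A. Their place at the top thus rests on the direction taken for that array.

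RPS29B (YDL061C), for a zinc-binding head protein, was at 0.94 on the replicate 1 Cy5 array, 0.22 on the replicate 1 Cy3 array and 0.20 on the array labelled replicate 2. RPS25B (YLR333C), for a head protein needed for initiation on several viral internal ribosome entry sites, was at 0.80, 0.16 and 0.22. RPS30B (YOR182C), for a small body protein at the mRNA entry side, had the highest value of any member, 1.20, on the replicate 1 Cy5 array. It also had 0.38 on the replicate 1 Cy3 array, and −0.08 on the array labelled replicate 2, so its mean of 0.35 ± 0.62 (SD, n = 2) was smaller than its spread.

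In the direction taken, the lowest means came from members with values on both sides of 0 or with a blank spot. RPS31 (YLR167W), which encodes a fusion of ubiquitin with a head protein, was at 0.52 on the replicate 1 Cy5 array, −0.46 on the replicate 1 Cy3 array and −0.17 on the array labelled replicate 2. RPS13 (YDR064W), for a body protein that joins early in assembly, was at 0.69, −0.44 and −0.17 on the same arrays. Both genes were above 0 on 1 array and below 0 on the other two. With the sign of the array labelled replicate 2 turned, the means were 0.10 for RPS31 and 0.15 for RPS13.

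RPS22B (YLR367W) and RPS1A (YLR441C) were the only members with a mean below 0 in replicate 1, and both were blank on the replicate 1 Cy5 array. RPS22B, for a body protein that binds the central domain of 18S rRNA, was at −0.19 on the replicate 1 Cy3 array and −0.04 on the array labelled replicate 2. RPS1A, for a platform protein, was at −0.18 and 0.12 on those arrays. Their partners RPS22A and RPS1B were at 0.55 and 0.30 on the replicate 1 Cy5 array. The negative replicate 1 values of RPS22B and RPS1A thus rest on the array on which the whole set was centred near 0.

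RPS24B (YIL069C) was the 1 member on chromosome IX, whose genes had medians of −0.80 on the replicate 1 Cy5 array, −0.62 on the replicate 1 Cy3 array and −0.05 on the array labelled replicate 2. RPS24B itself was at 0.18, −0.07 and −0.24. It was the lowest member on the replicate 1 Cy5 array, while standing above its chromosome's median on both arrays of replicate 1. The part of the chromosome in its value was not tested.

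In the directions taken, the 8 single-copy genes had lower medians than the members with a paralogue on each array. The medians of single-copy genes against paralogous ones were 0.65 and 0.76 on the replicate 1 Cy5 array, −0.23 and 0.024 on the replicate 1 Cy3 array, and −0.13 and 0.0021 on the array labelled replicate 2. The difference was −0.14 in replicate 1. For the array labelled replicate 2 it was −0.13. With the sign of that array turned, the single-copy genes would have the higher median there. No test was made, since genes are not replicates and 2 replicates cannot bring an exact sign-flip p below 0.5. RPS2 (YGL123W), for a protein at the mRNA entry channel, was at 0.71 on the replicate 1 Cy5 array, −0.20 on the replicate 1 Cy3 array and −0.18 on the array labelled replicate 2. RPS3 (YNL178W), its neighbour at the entry channel, was close to it at 0.61, −0.06 and −0.10. RPS15 (YOL040C), a head protein needed for export of the pre-40S from the nucleus, was at 0.97, −0.22 and 0.02, the widest swap gap of the single-copy genes at 1.20.

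RPS20 (YHL015W), a head protein that is ubiquitinated when ribosomes collide, was at 0.44 on the replicate 1 Cy5 array, −0.29 on the replicate 1 Cy3 array and 0.07 on the array labelled replicate 2. RPS12 (YOR369C), for a protein of the beak of the head, was at 0.39, 0.31 and 0.11. RPS12 was the 1 single-copy gene above 0 on all 3 arrays. Its mean was 0.23 ± 0.17 (SD, n = 2), with an adjusted p of 0.961 in limma.

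The 19 measured head genes against 33 body and platform genes had medians of 0.40 against 0.33 in replicate 1. They were 0.048 against −0.015 on the array labelled replicate 2, in the direction taken for it. On the replicate 1 Cy3 array the order was the other way, at −0.059 against 0.01. The medians differed by at most 0.09 on any array, with no test.

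**Figure D3:**
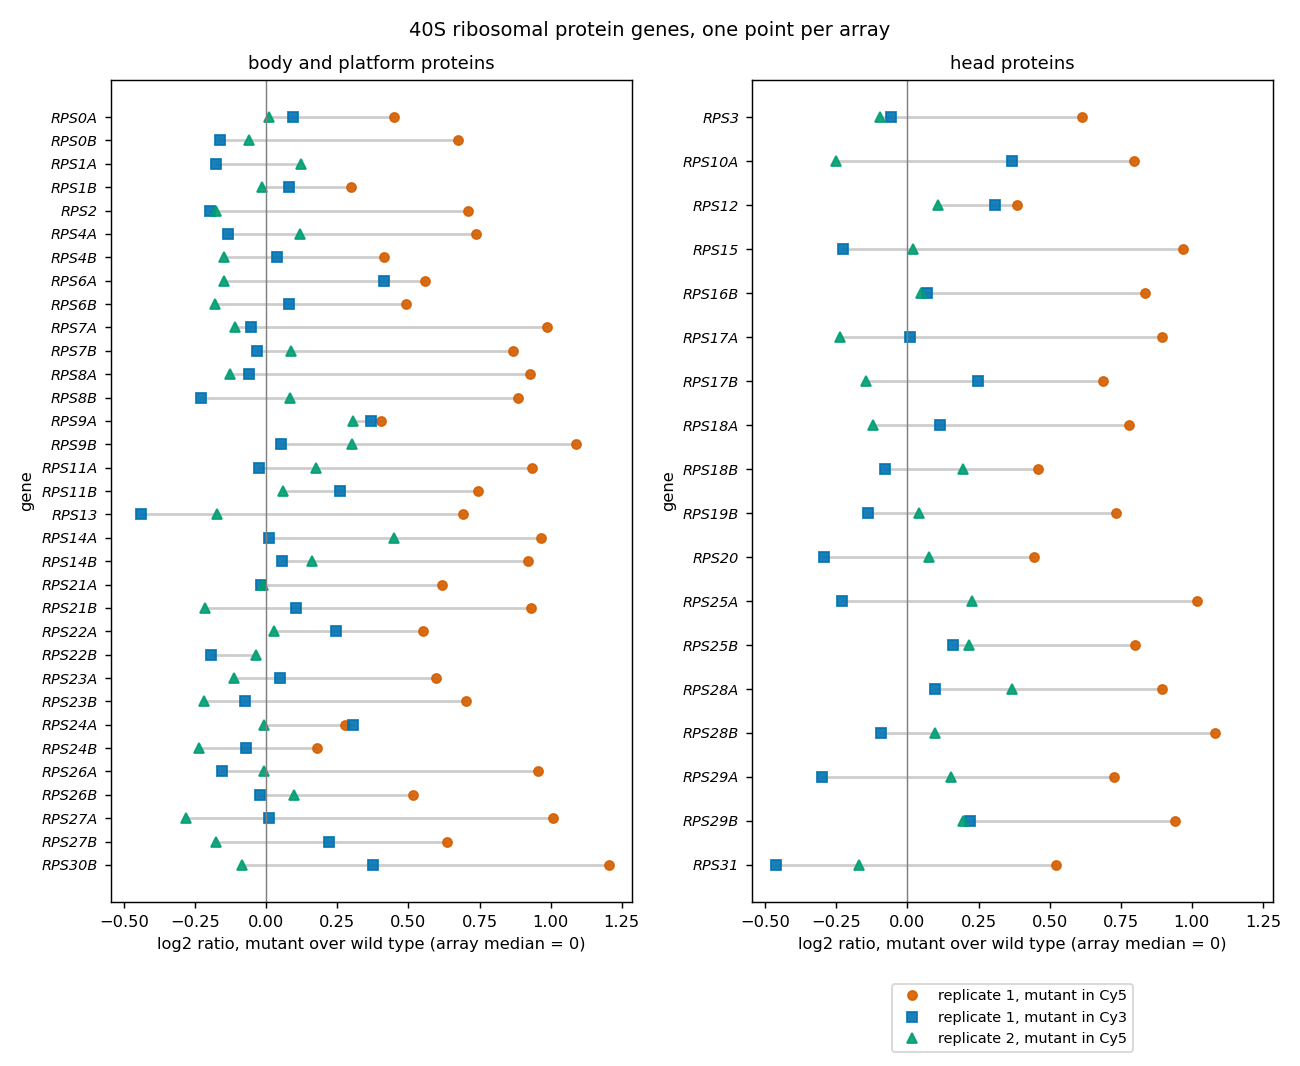
Log2 ratio of mutant over wild type (horizontal axis, array median at 0) of 51 measured 40S genes on the replicate 1 Cy5 array (circles), the replicate 1 Cy3 array (squares) and the array labelled replicate 2 (triangles). Body and platform proteins are on the left and head proteins on the right; grey lines span each gene's values. The circle is rightmost for 48 of the 49 genes with 3 values drawn here, and the squares and triangles scatter around 0.

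A few members were alike on both arrays of the swap pair. The gap was under 0.3 for 6 of 50 members, named after their values were seen as RPS24A, RPS9A, RPS12, RPS6A, RPS1B and RPS24B. RPS9A (YPL081W) was the most even member over all arrays, at 0.40 on the replicate 1 Cy5 array, 0.37 on the replicate 1 Cy3 array and 0.30 on the array labelled replicate 2, a mean of 0.35 ± 0.057 (SD, n = 2) and an adjusted p of 0.925 in limma. Its mean was 0.0405 with the sign of the array labelled replicate 2 turned. RPS24A (YER074W), for a body protein, was the 1 member not highest on the replicate 1 Cy5 array, at 0.28 there, 0.31 on the replicate 1 Cy3 array and −0.0070 on the array labelled replicate 2. RPS6A (YPL090C), for the protein phosphorylated downstream of TOR, was at 0.56, 0.42 and −0.15, and its partner RPS6B (YBR181C) at 0.49, 0.08 and −0.18. RPS6A had the highest value of any member on the replicate 1 Cy3 array. At the other end, RPS25A (YGR027C), also named after its values were seen, had the widest gap, with 1.02 on the replicate 1 Cy5 array and −0.23 on the replicate 1 Cy3 array, and it was at 0.23 on the array labelled replicate 2.

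RPS10A (YOR293W), for a head protein and named after its values were seen, was at 0.80 and 0.37 on the Cy5 and Cy3 arrays of replicate 1. It was at −0.25 on the array labelled replicate 2. The 23 members outside the rule for named genes ran from 0.30 to 1.08 on the replicate 1 Cy5 array, from −0.23 to 0.42 on the replicate 1 Cy3 array and from −0.25 to 0.30 on the array labelled replicate 2.

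The paralogue comparison asked whether copies A and B of a protein gene differed in their ratios. Of 24 pairs, 22 had both copies listed, 20 had both measured in both replicates and 18 on all 3 arrays. The difference between the log2 ratio of copy A and that of copy B kept one sign on all 3 arrays in 3 of 18 pairs (16.7%). Among 60S pairs this held for 9 of 29 (31.0%). In none of the 18 pairs did the difference keep its sign and reach 0.3 in both replicates. Copies with near-identical coding sequences may bind each other's spotted probe, and the probe sequences are not known here, so every difference between copies is uncertain and may be understated.

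The 3 pairs of one sign were RPS24, RPS6 and RPS29. Each would lose its one sign if the array labelled replicate 2 were turned. RPS24A stood above RPS24B by 0.10 on the replicate 1 Cy5 array, 0.38 on the replicate 1 Cy3 array and 0.23 on the array labelled replicate 2, a mean of 0.23 ± 0.0049 (SD, n = 2). The small SD rests on averaging the swap pair, and RPS24B is the copy on chromosome IX. The RPS24 difference was 0.24 in replicate 1, so with the sign of the array labelled replicate 2 turned its mean would nearly cancel. RPS6A stood above RPS6B by 0.07, 0.33 and 0.03 on the same arrays. RPS29A (YLR388W) stood below RPS29B, at differences of −0.21, −0.52 and −0.04, a mean of −0.20 ± 0.23 (SD, n = 2). In the direction taken, only RPS24 of these 3 pairs had a mean larger than its SD, and RPS6 had 0.12 ± 0.12 (SD, n = 2).

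The order of the pairs by mean difference rests on the direction taken for the array labelled replicate 2. In that direction the largest, 0.25 ± 0.27 (SD, n = 2), was that of RPS22A over RPS22B. It was 0.44 on the replicate 1 Cy3 array and 0.06 on the array labelled replicate 2. Copy B had no value on the replicate 1 Cy5 array. RPS4A (YJR145C) against RPS4B (YHR203C), genes for a body protein, gave 0.32 on the replicate 1 Cy5 array, −0.17 on the replicate 1 Cy3 array and 0.27 on the array labelled replicate 2. For RPS14, RPS14A and RPS14B (YJL191W) were level in replicate 1, with differences of 0.05 and −0.04 on the Cy5 and Cy3 arrays. Copy A was 0.29 higher on the array labelled replicate 2. In yeast, Rps14 is known to bind the RPS14B transcript and lower its own production. RPS14B was at 0.92, 0.05 and 0.16 on the 3 arrays.

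At the other end of the scale, in the direction taken, the means cancelled out between arrays. RPS21A (YKR057W) minus RPS21B (YJL136C) averaged −0.0060 ± 0.30 (SD, n = 2), from −0.31 on the replicate 1 Cy5 array, −0.12 on the replicate 1 Cy3 array and 0.21 on the array labelled replicate 2. The RPS21 difference was −0.22 in replicate 1, so with the sign of the array labelled replicate 2 turned it would not cancel. Rps21 binds Rps0 on the platform side. RPS27A (YKL156W) minus RPS27B (YHR021C), genes for a zinc-binding protein, was at 0.37, −0.21 and −0.11. RPS26A (YGL189C) minus RPS26B (YER131W), for a protein that touches mRNA upstream of the start codon, was at 0.44, −0.13 and −0.11. A mean near 0 thus did not mean that copies had equal ratios on an array.

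**Figure D4:**
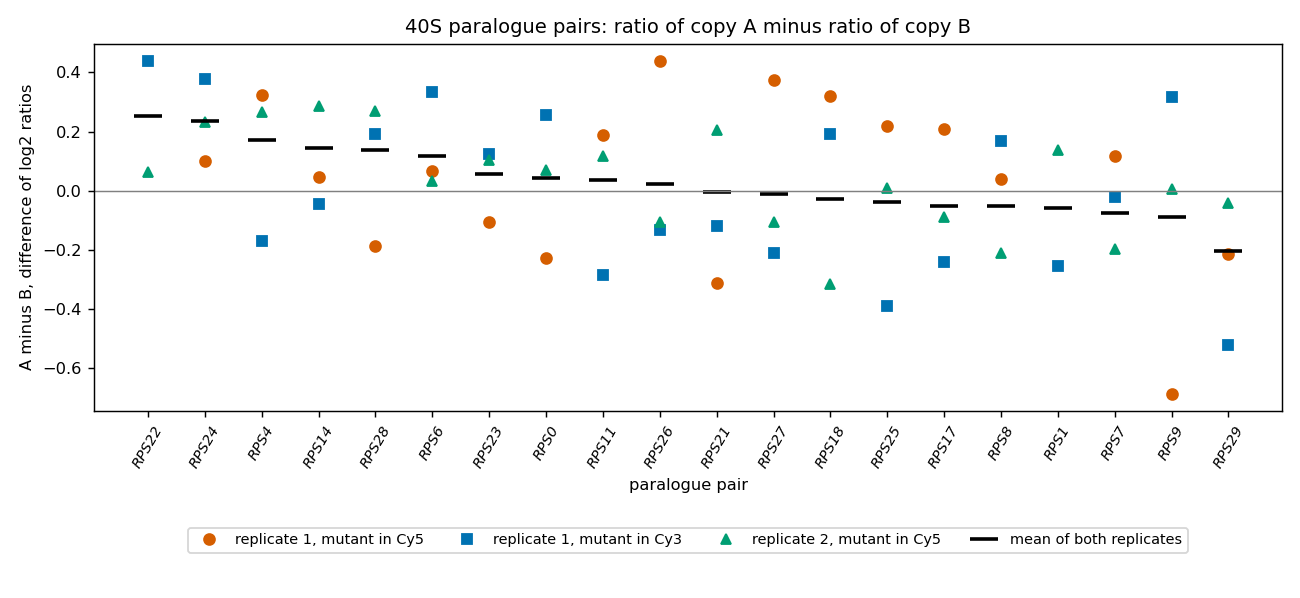
Log2 ratio of copy A minus log2 ratio of copy B (vertical axis) for the 20 pairs of 40S genes measured in both replicates, on the replicate 1 Cy5 array (circles), the replicate 1 Cy3 array (squares) and the array labelled replicate 2 (triangles), ordered by the mean of both replicates (bars). In the direction taken for the array labelled replicate 2, RPS22, RPS24 and RPS4 are highest by the mean and RPS29 lowest. Most pairs have points on both sides of 0.

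Differences between copies were of the size of the differences between arrays. In the direction taken, the median absolute mean over 20 pairs was 0.06, against a median SD over replicates of 0.15. The mean exceeded its SD in 4 pairs. The sign changed within the swap pair in 12 of 18 pairs and between replicates in 10 of 20. The RPS9 pair, named after its values were seen, showed the widest change within the swap, with A minus B at −0.69 on the replicate 1 Cy5 array and 0.32 on the replicate 1 Cy3 array, while it was at 0.0045 on the array labelled replicate 2. Over pairs, the ratios of copies A and B correlated at r of 0.28 on the replicate 1 Cy5 array (18 pairs), −0.33 on the replicate 1 Cy3 array (20 pairs) and 0.57 on the array labelled replicate 2 (20 pairs). These are descriptions over genes that share an array and may share probe signal.

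The 60S ribosomal protein genes, 73 listed, had nearly the same medians as the 40S genes. For 40S against 60S they were 0.73 and 0.80 on the replicate 1 Cy5 array, −0.0037 and 0.014 on the replicate 1 Cy3 array, and −0.0077 and −0.013 on the array labelled replicate 2. The 40S minus 60S difference was −0.023 in replicate 1. On the array labelled replicate 2 it was 0.0056, for a mean of −0.0088 ± 0.020 (SD, n = 2). With 2 replicates an exact sign-flip p cannot go below 0.5. The swap gap was as wide, with medians of 0.79 and 0.77. The 40S genes spread less than the 60S genes on the arrays of replicate 1, with standard deviations of 0.24 against 0.36 on the Cy5 array and 0.21 against 0.35 on the Cy3 array. On the array labelled replicate 2 they were alike, at 0.19 against 0.18. The difference in spread was not tested.

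Genes for the assembly of the 40S were mostly higher on the other array of the swap pair. The list of 40S chaperones and late assembly factors (14 genes, 13 measured) had medians of 0.38 on the replicate 1 Cy5 array, 0.78 on the replicate 1 Cy3 array and 0.015 on the array labelled replicate 2. Of its 13 genes, 3 were higher on the replicate 1 Cy5 array than on the replicate 1 Cy3 array. This compares with 53.3% of all genes measured on 3 arrays and 49 of 50 of the 40S genes. The 40S minus assembly difference in medians was thus 0.35 on the first of these arrays and −0.78 on the second. PNO1, a late factor of pre-40S maturation, was at 1.15 on the replicate 1 Cy5 array, 1.29 on the replicate 1 Cy3 array and 0.52 on the array labelled replicate 2 (adjusted p of 0.887 in limma). ENP1, a pre-40S export factor, was at 0.60, 1.76 and −0.05. FAP7, which helps Rps14 into place, was at 0.56, 0.87 and 0.12, and TSR1, a factor of late pre-40S particles, at 0.38, 0.98 and 0.15. Of the list, 0 genes passed in limma over all genes, and 1 of 13 was higher at an unadjusted p under 0.05, against 1.39% of all genes. The difference between these sets was not tested.

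Factors that bind the mature 40S (16 genes, all measured in both replicates) were at medians of 0.28 on the replicate 1 Cy5 array, 0.34 on the replicate 1 Cy3 array and −0.0099 on the array labelled replicate 2, and 0 passed in limma over all genes or at an unadjusted p under 0.05. SUI1, initiation factor eIF1, was at 1.16, 0.79 and −0.07. SUI2, the alpha subunit of eIF2, was at 0.20, 0.93 and 0.08, RLI1, which splits ribosomes for recycling, at 0.35, 0.77 and 0.06, and TIF35, a subunit of eIF3, at 0.40, 0.56 and −0.03. ASC1, the ribosomal protein of the head that carries no RPS symbol and was picked out after its values were seen, was at 0.82, −0.27 and 0.02.

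Regulators of ribosomal protein genes (20 genes, 16 measured in both replicates) had medians of −0.30 on the replicate 1 Cy5 array (18 genes), 0.072 on the replicate 1 Cy3 array (16 genes) and 0.031 on the array labelled replicate 2 (16 genes). These medians are over partly different genes, since some were measured on the replicate 1 Cy5 array only. Above 0 in both replicates were 3 of 16, against 26.6% of all genes, and below 0 in both were 5, against 24.6%. In limma 0 passed over all genes. At an unadjusted p under 0.05, 1 of 16 was higher, against 1.39% of all genes, and 2 were lower, against 3.44%. RAP1, the general activator at these promoters, was at −0.25, 0.09 and 0.06. IFH1, its coactivator partner with Fhl1, was at −0.19, 0.98 and 0.0042, and FHL1 at −1.04, 0.77 and −0.10. These 3 were named for their role, after their values were seen. By size, TOD6 was at 1.40, 1.16 and 0.41 and its paralogue DOT6, both repressors of ribosome biogenesis genes, at −0.64, −1.37 and −0.46. YAK1, a kinase active when protein kinase A is low, was at −0.65 and −0.76 on the replicate 1 Cy3 array and the array labelled replicate 2, with the replicate 1 Cy5 array blank. LST8, a subunit of the TOR complexes, was at −0.30, −0.53 and −0.52. The smallest adjusted p of the list in limma was 0.887.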

How the data were processed

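Mutant and wild-type RNA were compared on 3 two-colour arrays, with cDNA primed by oligo(dT) from 8 µg of total RNA, per the labels' protocols. The deposited values are log2 ratios, one for each gene on an array. How the authors scanned, background-corrected, filtered or normalized the spots is not stated here. The base was taken as log2 because the linear ratios are then in whole steps of 0.001 for 100% of values, within the rounding of the deposited log values. The deposited values of the swapped array already ran the same way as those of its partner (r of 0.51) and were not turned. Array medians were set to 0, the swap pair was averaged (1 value where the other was blank), and 4598 genes with both replicates were tested for a mean other than 0. The test was limma 3.58.1 (lmFit and eBayes, R 4.3.3), two-sided, with Benjamini-Hochberg adjustment over all genes and a threshold of 0.05, and the script was tested on simulated data. The replicates are biological, per the labels. RefSeq R64 gave symbols to 5638 of 6212 identifiers.

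The members and lists were chosen with earlier results of these data known. Genes given in full were the single-copy genes, the 6 members with the highest and the 6 with the lowest mean, the 5 pairs with the largest and the 3 with the smallest mean difference, members blank in a replicate, and up to 4 genes of each list by absolute mean. Any other is marked where named, except RPS1B and RPS6B as partners and the RPS6 pair, which were named after their values were seen. The values of 1 member under this rule are not reported here, though it is counted in the sets. Sequences were not used here.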

Additional observations from a re-analysis of the deposited data

How the results depend on the processing

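The count of 0 members past the threshold was the same under each alternative run: other centring, scaling to one spread, quantile normalization, either array of the swap pair alone, genes on all 3 arrays, members of chromosomes VII, VIII and IX left out, 3 arrays as independent, a dye coefficient, a robust prior, an adjusted p of 0.1, an unadjusted p of 0.05, a 2-fold limit and, chosen after seeing the data, the array labelled replicate 2 with its sign turned. The smallest adjusted p of a member in limma lay between 0.475 and 0.997 over these fits. Over all genes, 4 passed after scaling, 12 after quantile normalization, 13 with replicate 1 from the Cy3 array and 17 with 3 arrays as independent, against 0 otherwise. Since the main fit missed the deleted VHS3 as well, a steady count of 0 does not show that the 40S genes were unchanged. The choice of array moved the other values most. With replicate 1 taken from its Cy5 array alone the 40S median in that replicate was 0.73, and from its Cy3 array alone it was −0.0037, against 0.38 for their average. Above 0 in both replicates were 12 members with the Cy3 array, against 24. Without replicate 1, 25 members were above 0, and without replicate 2, 50 were. Pairs of one sign numbered 7 of 18 with the Cy5 arrays alone, 12 of 20 with replicate 1 from the Cy3 array, 6 of 18 without replicate 2, and 0 when a difference of 0.3 in both replicates was asked for. Fewer arrays, or a further condition, enter these pair counts by construction. The 40S minus 60S difference moved by less than its spread under each alternative run. With the array labelled replicate 2 alone, 23 of 52 members had the other sign of mean, and with replicate 1 from the Cy3 array 22 of 52 did. With the sign of the array labelled replicate 2 turned, 5 of 52 did, and 11 means moved by at least their SD over replicates. Without centring, 30 members were above 0 on the array labelled replicate 2, against 25. Alternatives that need protein or promoter sequences were not run. No paired analysis was possible because each ratio already sets mutant against wild type on 1 array and there is a single group of ratios. No intensities were used here, so how far a spot stood above background cannot be given.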
